A study of Mus musculus with 42 samples.

Results

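Chemokine mRNA was followed in the livers of lean and obese mice with and without the resolvin E1 (RvE1) receptor ChemR23. The set held 10 chemokine genes, Cxcl1, Cxcl2, Cxcl9, Cxcl10, Cxcl12, Cxcl13, Ccl2, Ccl5, Ccl6 and Ccl9. They were chosen by gene name, with earlier results of these data known, from 19758 names listed in 6 tables of normalized counts. All mice were C57BL/6J males, either WT or ChemR23 KO by CRISPR/Cas9 editing with WT littermates as controls, and each group held 7 mice with 1 library per mouse. From 6 weeks of age they ate a control diet with 10% of its energy as fat (WT lean, KO lean) or a high fat diet with 60% (the obese groups) for 15 weeks. WT obese+RvE1 and KO obese+RvE1 mice received 300 ng of RvE1 by intraperitoneal injection on each of 4 days, the mice of the other groups received ethanol in PBS as vehicle, and whole livers were taken on day 5 after a fast of at least 4 hours. The KO is carried by the whole animal and not by the liver alone. All 10 genes were listed in 4 tables, and 9 in the tables of KO lean vs WT lean and WT obese+RvE1 vs WT obese, which do not list Cxcl2. Every listed gene of the set passed the filter on low counts, a mean of at least 5 normalized counts over the 14 mice of a table.

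Chemokines are small secreted proteins that bind to G protein-coupled receptors on leukocytes and direct where these cells move. Cxcl1 and Cxcl2 act through Cxcr2 and draw neutrophils, while Cxcl9 and Cxcl10 are induced by interferon and act through Cxcr3 on T cells and NK cells. Cxcl12, the ligand of Cxcr4, is made steadily by stromal and endothelial cells, and Cxcl13, the ligand of Cxcr5, guides B cells. Ccl2 acts through Ccr2 on monocytes, Ccl5 draws T cells and macrophages, and Ccl6 and Ccl9 are rodent chemokines of the myeloid lineage that bind Ccr1. In obesity, resident macrophages of the liver (Kupffer cells), endothelium and hepatocytes can all be sources of these signals.

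The set falls into a few neighbourhoods of the genome (GRCm38, GENCODE M21). Cxcl1 (chr5:90891241-90893115) and Cxcl2 (chr5:90903871-90905938) lie on the plus strand with 10.8 kb between them. On the minus strand of the same chromosome Cxcl9 (chr5:92321347-92328079) and Cxcl10 (chr5:92346638-92348889) lie 18.6 kb apart, and Cxcl13 (chr5:95956951-95961068, plus strand) follows 3.61 Mb further on. Cmklr1, the gene edited in the KO mice, is also on chromosome 5 (113612354 to 113650426), at 17.65 Mb from Cxcl13. Ccl2 (chr11:82035571-82037453, plus strand), Ccl5 (chr11:83525778-83530518), Ccl9 (chr11:83572919-83578636) and Ccl6 (chr11:83587882-83593087, all 3 on the minus strand) share chromosome 11, with 9.2 kb between Ccl9 and Ccl6. Cxcl12 (chr6:117168535-117181367, plus strand) stands alone. All are protein-coding genes, and the counts cover their exons.

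Promoter sequences were matched for 8 of the 10 genes in RefSeq (GRCm38.p6, 250 bases before to 50 after the start). Those of Cxcl1, Cxcl2, Cxcl10 and Cxcl13 are printed 5′ to 3′ on the strand of the gene, since the first 3 hold matches to motifs of inflammatory signalling and Cxcl13 was the gene that changed most with genotype. Capitals mark matches to the NF-kB consensus and to the core of the interferon-stimulated response element (ISRE), which is GAAA, any 2 bases and GAAA again, both searched on both strands with overlapping matches joined into 1 site. The windows are chr5:90890995-90891294 for Cxcl1, chr5:90903649-90903948 for Cxcl2, chr5:92348840-92349139 for Cxcl10 and chr5:95956689-95956988 for Cxcl13.
Cxcl1: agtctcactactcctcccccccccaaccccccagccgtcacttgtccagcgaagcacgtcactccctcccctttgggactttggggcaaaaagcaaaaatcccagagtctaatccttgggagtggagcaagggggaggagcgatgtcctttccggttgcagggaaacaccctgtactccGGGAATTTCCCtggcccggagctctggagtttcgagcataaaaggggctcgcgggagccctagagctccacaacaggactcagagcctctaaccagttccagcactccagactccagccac
Cxcl2: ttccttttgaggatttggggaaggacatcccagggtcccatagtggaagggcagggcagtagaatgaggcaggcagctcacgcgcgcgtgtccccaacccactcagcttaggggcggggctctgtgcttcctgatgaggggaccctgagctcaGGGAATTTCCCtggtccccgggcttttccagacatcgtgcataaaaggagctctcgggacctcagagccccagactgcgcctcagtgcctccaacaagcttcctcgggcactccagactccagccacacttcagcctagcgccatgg
Cxcl10: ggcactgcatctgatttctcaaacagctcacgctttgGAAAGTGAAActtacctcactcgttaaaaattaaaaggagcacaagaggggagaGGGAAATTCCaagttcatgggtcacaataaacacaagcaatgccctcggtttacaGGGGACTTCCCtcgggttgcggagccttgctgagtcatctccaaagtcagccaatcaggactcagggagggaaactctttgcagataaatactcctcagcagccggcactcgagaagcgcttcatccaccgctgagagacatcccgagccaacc
Cxcl13: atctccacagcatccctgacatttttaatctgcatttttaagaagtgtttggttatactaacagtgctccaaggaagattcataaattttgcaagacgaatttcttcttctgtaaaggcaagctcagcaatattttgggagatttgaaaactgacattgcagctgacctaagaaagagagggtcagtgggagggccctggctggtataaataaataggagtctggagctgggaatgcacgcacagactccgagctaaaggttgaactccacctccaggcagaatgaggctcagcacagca

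Cxcl1 and Cxcl2 carried the same NF-kB match, GGGAATTTCCC, from base -71 and base -97 relative to the start. Cxcl10 held 2 NF-kB matches (from -159 and -104) and the ISRE core match GAAAGTGAAA (from -213), and Ccl9 held 1 NF-kB match, GGAAAGCCCC (from -35). Of 32851 mouse promoters of the same length, 8.46% held the NF-kB consensus and 3.44% the ISRE core. TATAAA, searched on the strand of the gene, was found in Cxcl9, Cxcl13 and Ccl9, and in 8.32% of all promoters. A match describes the letters only.

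The chemokines spanned 3 orders of magnitude in level. Per kb of exon in the table of KO obese vs KO lean, the mean in KO lean mice was 1416 normalized counts for Cxcl12, 563 for Ccl9, 362 for Cxcl1 and 262 for Ccl6. It was 132 for Cxcl13, 105 for Cxcl9, 24.2 for Cxcl10, 19.5 for Ccl5, 16.5 for Ccl2 and 1.26 for Cxcl2. Reads behind these values ran from 3936 to 19041 per mouse for Cxcl12, but from 0 to 49 for Cxcl2 and from 2 to 37 for Ccl5, so differences in the latter genes rest on few reads.

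**Figure D1:**
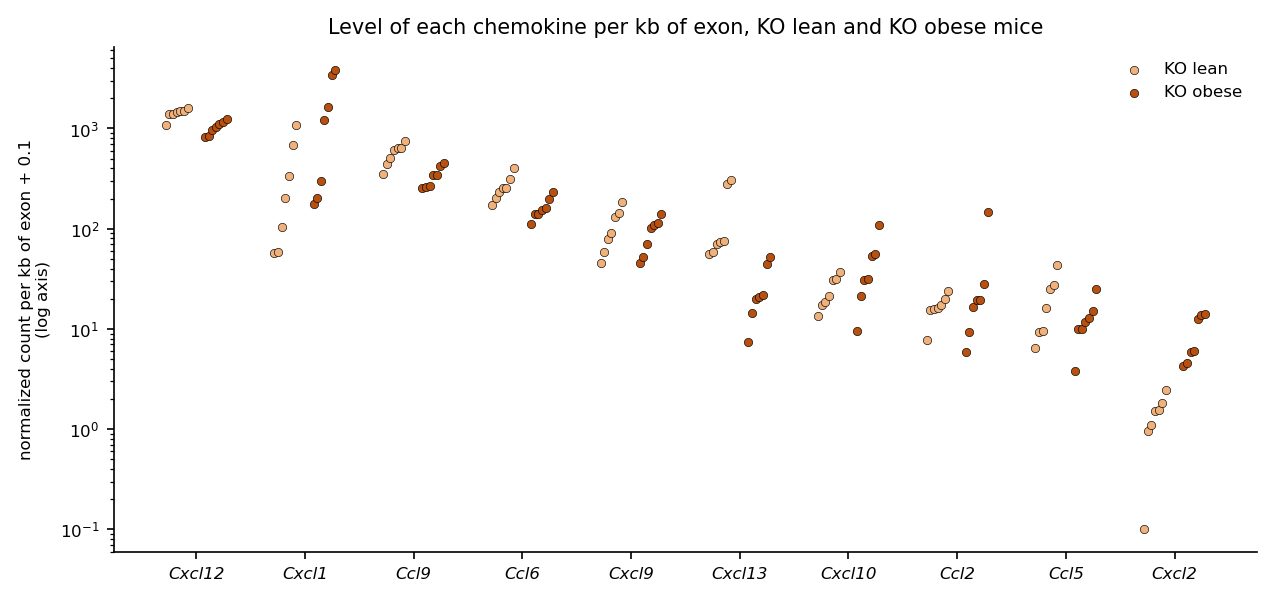
Normalized count per kb of exon plus 0.1 (log axis) for each chemokine, with 1 point per KO lean and KO obese mouse and genes ordered by mean level. Cxcl12 sits at the top with little spread, Cxcl1 is spread widely in both groups, and the lowest Cxcl2 point is the KO lean mouse with no Cxcl2 read.

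Spread between mice of a group also differed from gene to gene. On the log2 scale the pooled within-group SD was 1.59 for Cxcl1, 1.28 for Cxcl13 and 1.00 for Cxcl2. It lay between 0.56 and 0.81 for Ccl9, Cxcl9, Cxcl10, Ccl5 and Ccl2, and was 0.41 for Ccl6 and 0.29 for Cxcl12. A difference of a given size was thus hardest to tell from mouse-to-mouse spread for Cxcl1 and easiest for Cxcl12.

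Reads on listed genes ran from 15992556 to 43841273 per mouse, with a median of 24298307. Cmklr1 was at 9.72 to 22.6 normalized counts in KO lean and 40.8 to 114 in WT lean mice (log2 fold change -2.23 ± 0.24 SE, adjusted p = 0.000492). In obese mice it was at 5.08 to 23.2 in KO and 33.3 to 102 in WT (-2.04 ± 0.31, adjusted p = 0.0339), so no library went against its genotype label. The hepatocyte genes Alb, Apoa1, Ttr and Cps1 were high in all 42 livers, their sum lying between 695247 and 1630450. Throughout, a gene was called at a BH-adjusted p under 0.1 from limma with a fold change above 1.5, and log2 fold changes are on the log2(normalized count + 1) scale. Values are compared within a table only, since each table has its own scaling, and the vehicle-treated groups recur in several comparisons. RNA from whole liver cannot tell fewer cells of a type from less RNA per cell.

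Diet in KO mice gave the broadest change. Compared with KO lean mice, KO obese mice had higher Cxcl2 and lower Cxcl13, Ccl9 and Ccl6. Of the 10 chemokines 4 were called, against 10.4% of all 14213 genes tested. Called higher was 1 (4.97% of all genes) and called lower were 3 (5.42%). The median log2 fold change of the 10 was -0.32, beside 0.00 for all genes. Of the genes called 706 of 1476 were higher, and with equal read totals, which moved the median of all genes by 0.14, 1320 of 1671 were.

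Cxcl2, the neutrophil attractant, ran from 0 to 4.83 normalized counts in KO lean mice with a median of 2.93, and from 8.72 to 28.8 in KO obese mice with a median of 12.2. All 7 KO obese mice exceeded the highest KO lean mouse, a separation that 0.985% of all genes showed in this direction. Its log2 fold change was 2.39 ± 0.41 (SE), with adjusted p = 0.0036. The reads behind it were few, 0 to 5 in KO lean and 9 to 49 in KO obese mice, and with a larger pseudocount of 4 the fold change was 1.65 with adjusted p = 0.0030. Of 5 tested neutrophil markers 0 were called in this comparison, 4 with positive values and a median log2 fold change of 0.36. Their part in the Cxcl2 values was not tested.

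Cxcl1, its neighbour with the same receptor, had a median of 381 (lowest 108, highest 2042) in KO lean and 2261 (lowest 330, highest 7190) in KO obese mice. The groups overlapped, with 4 KO obese mice above all KO lean mice and the other 3 within their range. The log2 fold change of 1.99 ± 0.81 missed the threshold (adjusted p = 0.103). It passed by edgeR (2.09, adjusted p = 0.0766), DESeq2 (2.09, adjusted p = 0.0460), and in 3 other alternatives. It also passed without KO lean mouse 20-2L (2.38, adjusted p = 0.0609) or 20R (2.27, 0.0600), and without KO obese mouse 10-2L (2.23, 0.0861), 10RL (2.33, 0.0729) or 10R (2.36, 0.0710). Among the alternatives that kept all mice the highest adjusted p was 0.133. Without KO obese mouse 31N the log2 fold change was lowest (1.62, adjusted p = 0.187).

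High and low Cxcl1 values in KO mice went with the number that opens the mouse identifier, whose meaning the labels do not give. In KO obese mice the 3 mice of number 10 were at 330 to 566, the 3 of number 31 at 2261 to 7190 and the single mouse of number 23 at 6434. In KO lean mice the 3 of number 20 were at 628 to 2042 and the others at 108 to 381. The same 3 mice were also the highest of their group for Cxcl9 (394 to 561, others up to 271) and Cxcl10 (69.5 to 83.1, others up to 47.9), a pattern chosen after the values were seen. In WT mice the numbers separated Cxcl1 only in part. The 2 WT lean mice of number 26 were the highest of their group, 2.16 and 1.84 above its mean on the log2 scale. All 3 WT obese mice of number 6 lay below their group mean. However, the 3 WT obese mice of number 27 spanned 306 to 4775 and the 2 WT lean mice of number 8 spanned 139 to 564. With this number as a random block, Cxcl1 was not called with diet in KO mice, and Cxcl2 remained called (2.42, adjusted p = 0.0265).

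**Figure D2:**
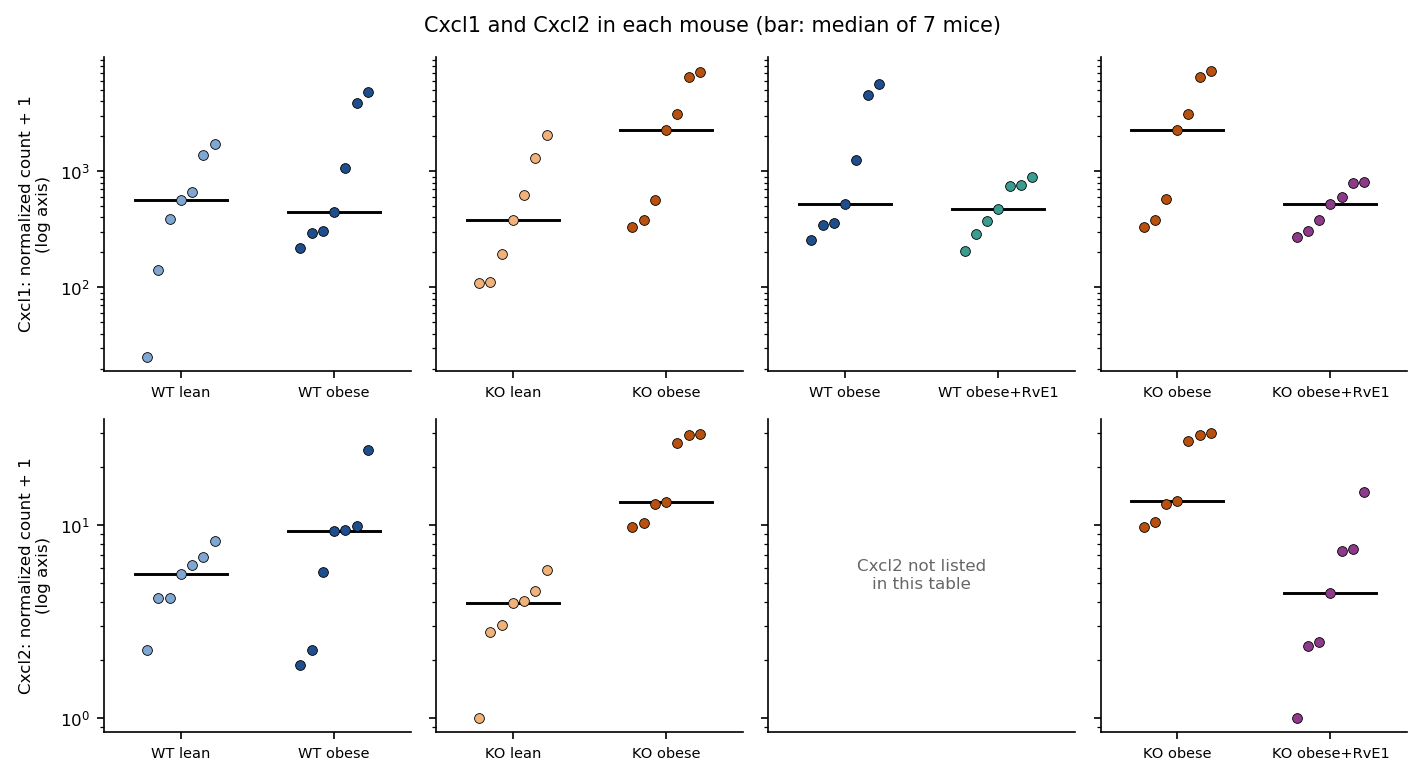
Normalized count plus 1 (log axes) of Cxcl1 (top) and Cxcl2 (bottom) in each mouse, 1 column per table, with a bar at the median of 7 mice. KO obese mice all lie above KO lean mice for Cxcl2, while Cxcl1 splits KO obese mice into 3 low and 4 high animals and has no such high animals in either RvE1 group.

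Cxcl13, the B cell chemokine, moved the other way. KO lean mice were at 63.8 to 352 normalized counts with a median of 85.1, and KO obese mice at 8.37 to 59.3 with a median of 23.8. All KO obese mice lay below all KO lean mice, as 1.11% of all genes did. Cxcl13 fell by 2.18 ± 0.46 (SE) on the log2 scale with adjusted p = 0.00825, and leaving out any 1 mouse gave values between -2.39 and -1.92.

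Ccl9 and Ccl6 fell less. Ccl9 had a median of 1872 (lowest 1081, highest 2262) in KO lean and 1050 (lowest 768, highest 1373) in KO obese mice, with 5 mice of each group beyond the range of the other. Its log2 fold change was -0.75 ± 0.17 with adjusted p = 0.0140. Ccl6 had a median of 452 (lowest 311, highest 728) in KO lean and 277 (lowest 198, highest 418) in KO obese mice. The groups overlapped and the log2 fold change was -0.67 ± 0.19 with adjusted p = 0.0257. The call of Ccl6 was lost with equal read totals (-0.53, adjusted p = 0.0966), with the number of the mouse identifier as random block (-0.64, adjusted p = 0.119) and without KO lean mouse 20L (-0.56, adjusted p = 0.0460), where the fold change fell under 1.5.

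Many Kupffer cell and macrophage markers were also lower in KO obese than in KO lean mice. Of 11 markers 10 were tested and 7 called lower, led by Vsig4, a complement receptor (-0.73 ± 0.12, adjusted p = 0.0035), and C1qa, a chain of complement C1q (-0.89 ± 0.15, adjusted p = 0.0036). Their summed level was 11366 to 23862 in KO lean and 6319 to 8850 in KO obese mice with no overlap. Of 5 B cell markers 4 were tested and all 4 called lower, led by the surface proteins Ms4a1 (-1.68 ± 0.39, adjusted p = 0.0134) and Cd79b (-0.94 ± 0.32, adjusted p = 0.0567), with sums of 59.0 to 140 and 11.9 to 61.1. Of all genes 5.42% were called lower here, and 1.11% had all KO obese mice below all KO lean mice. With equal read totals 5 macrophage markers and 1 B cell marker were called lower, and with the random block 6 and 1. In neither list was a listed marker at 0 in all mice. Their part in the lower Cxcl13, Ccl6 and Ccl9 was not tested.

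Cxcl12 had a median of 11950 (lowest 8879, highest 13082) in KO lean and 8492 (lowest 6740, highest 10123) in KO obese mice. Only the lowest KO lean mouse, 20L, lay within the KO obese range. With -0.47 ± 0.12 and adjusted p = 0.0207 it passed the test on p but not the fold threshold, and with a correction for gene length and GC it passed both (-0.60, adjusted p = 0.0047). With equal read totals it passed neither (-0.32, adjusted p = 0.152).

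Cxcl9, Cxcl10, Ccl2 and Ccl5 were not called with diet in KO mice. Cxcl10, an interferon target, was at 30.0 to 83.1 in KO lean and 21.2 to 245 in KO obese mice (0.60 ± 0.41, adjusted p = 0.328). It passed by DESeq2 (0.89, adjusted p = 0.0821), with library quality weights (1.17, adjusted p = 0.0132) and without KO obese mouse 23L (0.91, adjusted p = 0.0704). Ccl2 was at 8.80 to 27.3 and 6.59 to 168 (0.36 ± 0.50, adjusted p = 0.656). One animal, KO obese mouse 10-2L, was the highest for both Cxcl10 and Ccl2, and without it the fold change of Ccl2 was -0.10. Cxcl9 (-0.17 ± 0.31) and Ccl5 (-0.49 ± 0.42) had overlapping groups.

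**Figure D3:**
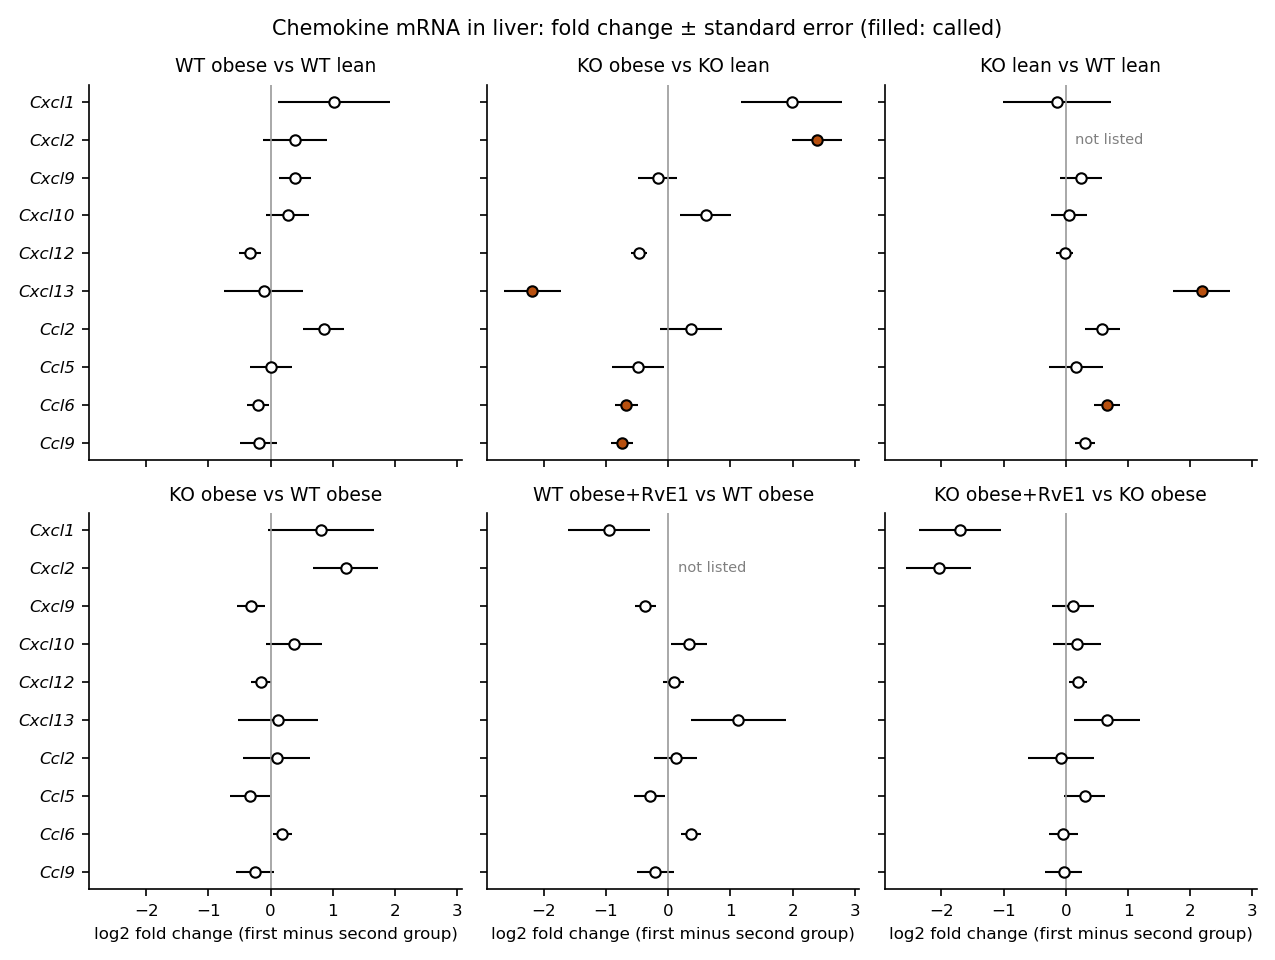
Log2 fold change ± SE (horizontal axis) of each chemokine (vertical axis) in the 6 comparisons of 7 vs 7 mice, with filled points for called genes. Calls appear in KO obese vs KO lean, where Cxcl2 lies at 2.39 and Cxcl13 at -2.18, and in KO lean vs WT lean, where Cxcl13 lies at 2.19.

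In WT mice the same diet gave no call. By limma 0 of the 10 chemokines were called in WT obese vs WT lean, against 3.80% of 14012 genes, and 1 had an unadjusted p under 0.05, against 18.2%. By edgeR 0 and by DESeq2 1 were called. That gene was Ccl2, the monocyte attractant, with 5.58 to 17.4 normalized counts (median 10.6) in WT lean and 9.73 to 39.6 (median 17.5) in WT obese mice. It lay above the WT lean median in 6 of 7 WT obese mice, with a log2 fold change of 0.85 ± 0.33 (adjusted p = 0.177), which DESeq2 gave as 1.00 (adjusted p = 0.0936).

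Cxcl1 was again the most uneven gene, with WT lean mice at 24.3 to 1712 (median 564) and WT obese mice at 219 to 4775 (median 445). The 2 highest WT obese mice, 22L at 3884 and 27-2R at 4775, exceeded all WT lean mice while the median was lower. The log2 fold change was 1.03 ± 0.90 (adjusted p = 0.588). Cxcl13 was at 5.84 to 42.7 in WT lean and 3.75 to 177 in WT obese mice (-0.11 ± 0.64, adjusted p = 0.953), and its sign turned positive by edgeR (0.68) and DESeq2 (0.68).

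The other 7 chemokines differed by -0.33 to 0.39 on the log2 scale in WT mice. Cxcl2 was at 1.24 to 7.30 in WT lean and 0.885 to 23.5 in WT obese mice. Cxcl12 had medians of 10014 and 8625, and Ccl6 of 234 and 215. Of the 10 tested Kupffer cell and macrophage markers 0 were called with diet in WT mice, and their sums overlapped at 4321 to 9030 and 5105 to 8094.

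Whether diet acted differently in KO and WT mice was tested as an interaction. None of the 10 chemokines passed, against 0.00710% of 14093 genes, and 2 had an unadjusted p under 0.05, against 18.2%. These were Cxcl2, where the diet effect was higher in KO than in WT by 2.00 ± 0.67 (adjusted p = 0.144), and Cxcl13, where it was lower by -2.07 ± 0.84 (adjusted p = 0.189). Neither edgeR nor DESeq2 called a chemokine. With library quality weights both passed (Cxcl2 1.66 with adjusted p = 0.0956, Cxcl13 -2.66 with adjusted p = 0.0351), in a fit that called 2537 of all 14093 genes. Cxcl2 also passed without KO lean mouse 20R (1.72, adjusted p = 0.0935), where 13.1% of all genes passed, and Cxcl13 without WT obese mouse 22L (-2.43, adjusted p = 0.0888), where 6.76% did.

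In lean mice Cxcl13 and Ccl6 were higher in KO than in WT. Of the 9 chemokines listed in KO lean vs WT lean, 2 were called, both higher, against 6.65% of 13031 genes called in all and 3.94% called higher. The median log2 fold change of the 9 was 0.24, beside 0.00 for all genes. Of the genes called 514 of 866 were higher, and with equal read totals, which moved the median of all genes by -0.12, 265 of 999 were.

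Cxcl13 was at 6.07 to 44.4 normalized counts in WT lean mice with a median of 26.4, and at 58.0 to 319 in KO lean mice with a median of 77.2. All KO lean mice were higher than all WT lean mice, as 0.322% of all genes were, and mice 14RL and 20R stood above the other 5 KO lean mice, which lay at 58.0 to 78.8. The log2 fold change was 2.19 ± 0.46 (adjusted p = 0.0308). Leaving out any 1 mouse gave 1.90 to 2.34. When the identifier number entered as a random block, the fold change was 2.16 with adjusted p = 0.138, and 3 genes of all were then called.

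Ccl6 had a median of 244 (lowest 152, highest 415) in WT lean and 411 (lowest 284, highest 660) in KO lean mice. The ranges overlapped and all 7 KO lean mice lay above the WT lean median. The log2 fold change was 0.66 ± 0.21 (adjusted p = 0.0641). This call was lost without WT lean mouse 21L (0.69, adjusted p = 0.109) or 26R (0.53, 0.133) and without KO lean mouse 14RL (0.66, 0.107), 20L (0.54, 0.128) or 9L (0.61, 0.130). It was also lost at an adjusted p under 0.05, with equal read totals (0.54, adjusted p = 0.126), with the length and GC correction (0.50, adjusted p = 0.120) and with the random block (0.64, adjusted p = 0.170).

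**Figure D4:**
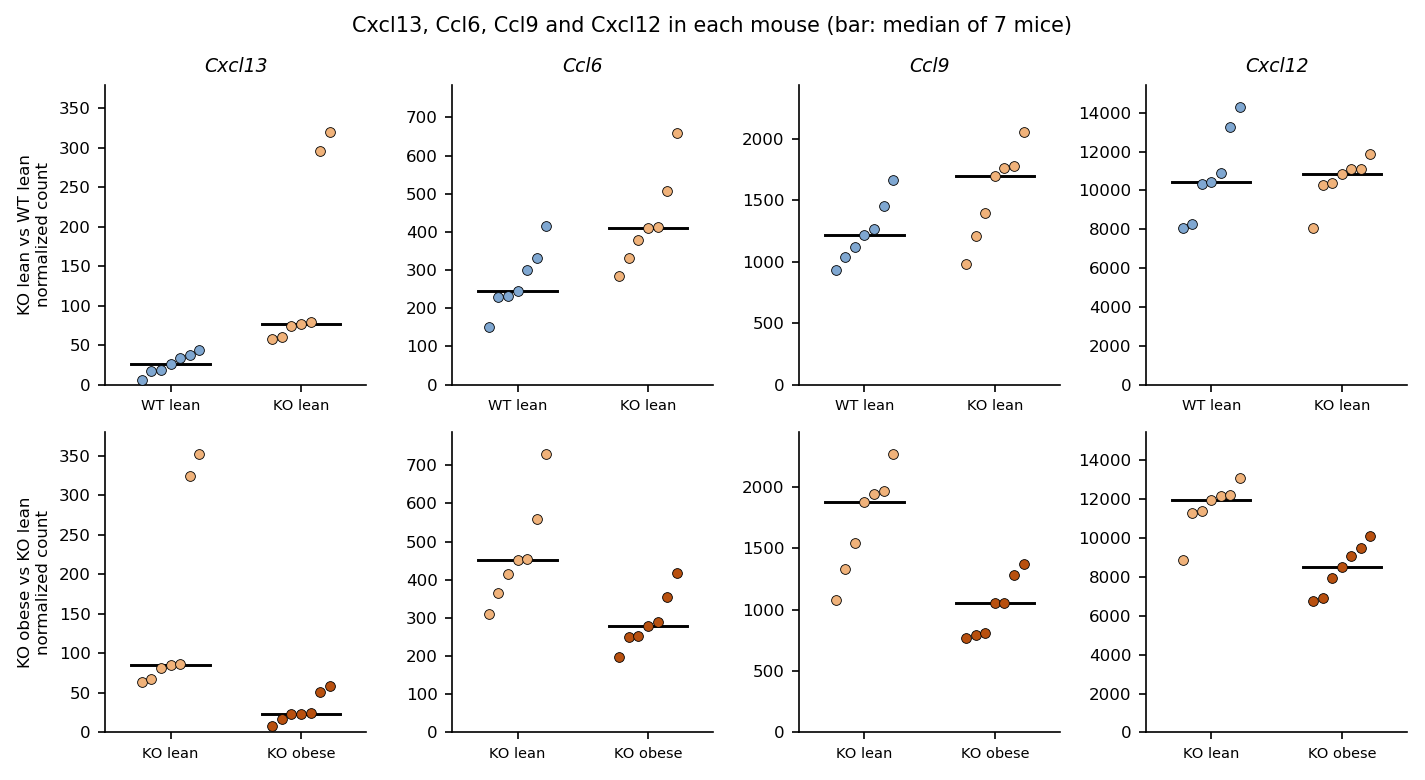
Normalized counts (axes from 0) of Cxcl13, Ccl6, Ccl9 and Cxcl12 in each mouse, with KO lean vs WT lean above, KO obese vs KO lean below and a bar at the median of 7 mice. The Cxcl13 groups are apart in both rows, with 2 KO lean mice near 300 or above, whereas the groups of the other 3 genes overlap in both rows.

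Of the 10 tested Kupffer cell and macrophage markers 9 were also called higher in KO lean mice, led by C1qa (1.01 ± 0.16, adjusted p = 0.0205) and Cd5l, a secreted macrophage protein (1.32 ± 0.23, adjusted p = 0.0247). Their sum was 4503 to 9392 in WT lean and 10313 to 21637 in KO lean mice with no overlap and no marker at 0 in all mice. Of 4 tested B cell markers 2 were called higher, Ms4a1 (1.09 ± 0.36, adjusted p = 0.0683) and Cd79b (0.88 ± 0.31, adjusted p = 0.0826), with sums of 21.9 to 62.7 and 47.4 to 120. Of 4 tested monocyte markers 2 were called higher, Lyz2 (0.91 ± 0.21, adjusted p = 0.0357) and Ccr2 (0.78 ± 0.26, adjusted p = 0.0697). Of all genes 3.94% were called higher here, and 0.322% had all KO lean mice above all WT lean mice. With the random block 0 markers of these 3 lists were called, and with equal read totals 7, 1 and 1 were. Their part in the higher Cxcl13 and Ccl6 was not tested.

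Ccl9 and Ccl2 were higher on average without a call. Ccl9 was at 933 to 1662 in WT lean and 985 to 2054 in KO lean mice (0.31 ± 0.16, adjusted p = 0.238). Ccl2 was at 5.79 to 18.1 and 7.99 to 24.8 (0.59 ± 0.28, adjusted p = 0.188), with 6 of 7 KO lean mice above the WT lean median. Cxcl1, Cxcl9, Cxcl10, Cxcl12 and Ccl5 differed by -0.15 to 0.24.

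In obese mice 0 of the 10 chemokines were called between genotypes by limma, edgeR or DESeq2, against 0.0141% of 14162 genes by limma. One had an unadjusted p under 0.05, against 2.25% of all genes. This was Cxcl2, at 0.979 to 26.0 (median 9.18) in WT obese and 8.41 to 27.8 (median 11.8) in KO obese mice. The ranges overlapped, since 3 WT obese mice lay below all KO obese mice and 2 KO obese mice above all WT obese mice (1.21 ± 0.52, adjusted p = 0.999938). Cxcl1 was at 240 to 5276 and 318 to 6932 (0.81 ± 0.86). Cxcl13, so different between lean genotypes, was at 4.12 to 195 in WT obese and 8.15 to 56.8 in KO obese mice (0.13 ± 0.64), and its sign turned by edgeR (-0.67) and DESeq2 (-0.65). The other chemokines differed by -0.33 to 0.38.

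RvE1 in obese KO mice was accompanied by lower Cxcl1 and Cxcl2 values without a call. By limma 0 of the 10 chemokines and 0.00% of 14207 genes were called. An unadjusted p under 0.05 was reached by 2 of the 10, against 8.30% of all genes. By edgeR and by DESeq2 0 chemokines were called, of 0 and 14 genes in all. The study's text differs here, since it names Cxcl1 among the genes significantly lowered by RvE1 in obese KO mice.

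Cxcl1 was at 333 to 7257 normalized counts (median 2281) in KO obese and 271 to 802 (median 522) in KO obese+RvE1 mice. The 4 highest KO obese mice lay above every RvE1-treated mouse, and the other 3, at 333 to 577, lay within the range of the treated mice. The log2 fold change was -1.70 ± 0.65 (unadjusted p = 0.0192, adjusted p = 0.563). With library quality weights it was -0.78, and DESeq2 gave -2.47 with adjusted p = 0.107. The 4 high KO obese mice were those of numbers 31 and 23. Number 23 was the only one found in both groups, with 6485 in its vehicle-treated mouse and 271 and 303 in its 2 RvE1-treated mice.

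Cxcl2 was at 8.80 to 29.1 (median 12.3) in KO obese and 0 to 13.9 (median 3.47) in KO obese+RvE1 mice. Below all KO obese mice lay 6 of the 7 treated mice, and the exception was 23-2L at 13.9. The log2 fold change was -2.04 ± 0.52 (unadjusted p = 0.00125, adjusted p = 0.557), and the alternatives gave -2.29 to -1.39 with adjusted p between 0.131 and 0.737. Within number 23 the vehicle-treated mouse was at 28.4 and the 2 treated mice at 6.34 and 13.9.

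The neutrophil markers S100a8 (-1.80 ± 0.83, adjusted p = 0.592) and S100a9 (-1.66 ± 0.74, adjusted p = 0.582), which encode calprotectin, had lower values in the same mice without a call. The median log2 fold change was -1.56 for the tested neutrophil markers, beside -0.01 for all genes. Of 6 neutrophil markers 5 were tested and 0 called, and 1 of the 5 had a positive value. Their sums overlapped at 86.4 to 1081 in KO obese and 54.1 to 883 in KO obese+RvE1 mice, and no listed marker was at 0 in all mice. Their part in the lower Cxcl1 and Cxcl2 values was not tested. The other 8 chemokines differed by -0.08 to 0.67, the highest being Cxcl13 at 8.53 to 59.6 (median 24.0) in KO obese and 10.8 to 109 (median 54.3) in treated mice (0.67 ± 0.53, adjusted p = 0.722). Of 5 B cell markers 4 were tested and 0 called, all 4 with positive values and a median of 0.93. An unadjusted p under 0.05 was reached by 3 of these 4 and by 2 of the 5 tested neutrophil markers, against 8.30% of all genes. The part of the B cell markers in the Cxcl13 values was not tested.

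In obese WT mice 0 of 9 chemokines and 0.00% of 13085 genes were called with RvE1 by limma. An unadjusted p under 0.05 was reached by 2 of the 9, against 6.08% of all genes. By edgeR and DESeq2 0 chemokines were called, of 1 and 15 genes in all. Ccl6 was at 209 to 317 (median 254) in WT obese and 226 to 496 (median 353) in WT obese+RvE1 mice, with 4 treated mice above all untreated mice (0.36 ± 0.16, adjusted p = 0.786). Cxcl9 was at 216 to 384 (median 326) and 183 to 422 (median 254), lower than the untreated median in 6 of 7 treated mice (-0.37 ± 0.17, adjusted p = 0.810).

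Cxcl1 in WT mice was at 257 to 5637 (median 522) without and 204 to 886 (median 474) with RvE1. The 3 highest values were again untreated mice, but the medians were close and the log2 fold change was -0.95 ± 0.65 (adjusted p = 0.917). Cxcl13 was at 4.40 to 208 and 25.4 to 564 (1.13 ± 0.77, adjusted p = 0.917), and without the mouse at 564, 7L, its log2 fold change was 0.56. The interaction of RvE1 with genotype called 0 of the 9 chemokines and 0.00% of 13061 genes by limma, and 0 chemokines by edgeR and DESeq2. No chemokine reached an unadjusted p under 0.05 there, against 2.39% of all genes, and for Cxcl1 the RvE1 effect differed by -0.75 ± 0.99 between genotypes.

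Whether the chemokines deviated together between mice of one group was examined over all 42 mice, each value taken relative to its group mean (35 mice for Cxcl2). Of 45 pairs 0 passed a permutation test at an adjusted p under 0.05. The highest positive value was between Cxcl10 and Ccl2 (r = 0.55, adjusted permutation p = 0.114; rho = 0.44, adjusted permutation p = 0.131), and without the 2 mice farthest from the Cxcl10 median r was 0.56. Cxcl9 and Ccl5 followed (r = 0.46, adjusted permutation p = 0.148; rho = 0.45, 0.131), with r = 0.48 without 2 mice. Cxcl2 and Cxcl12 had opposite deviations (r = -0.56, adjusted permutation p = 0.102; rho = -0.47, 0.131), with r = -0.46 without 2 mice and -0.28 with equal read totals. The neighbours Cxcl1 and Cxcl2 had r = -0.07, Cxcl9 and Cxcl10 0.31, and Ccl6 and Ccl9 0.34. Relative to the mean of the mice that share an identifier number, these values were 0.20, 0.17 and 0.45.

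**Figure D5:**
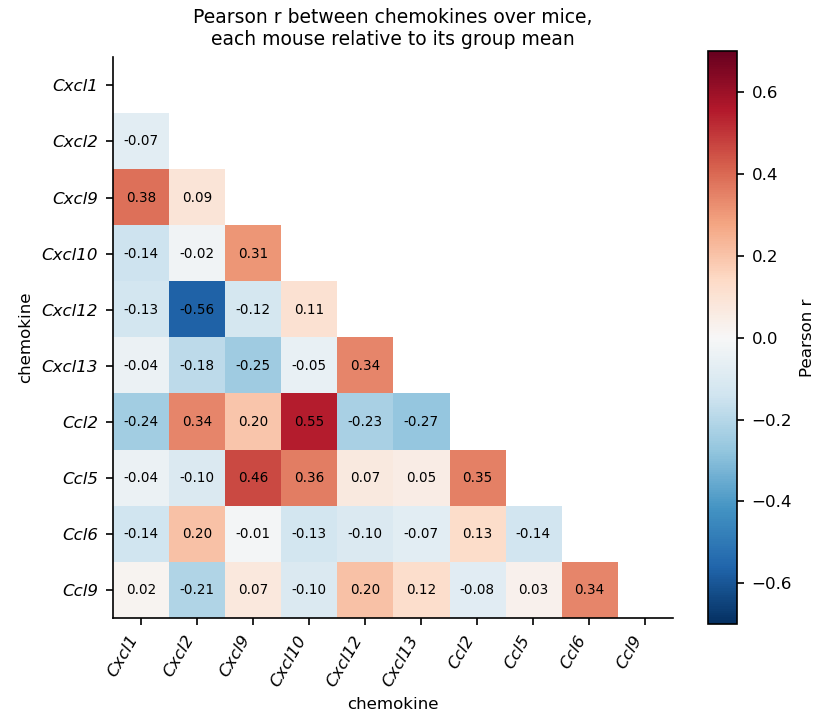
Pearson r between the within-group deviations of each pair of chemokines (rows and columns), over 42 mice or 35 for pairs with Cxcl2. The pair Cxcl10 and Ccl2 has the highest value, 0.55, and the pair Cxcl2 and Cxcl12 the lowest, -0.56.

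Among 12303 other genes, those whose within-group deviations were most like Ccl6 were the macrophage genes Ms4a6d (r = 0.75), C1qa (0.74) and Clec4f (0.73), the last a Kupffer cell lectin. For Cxcl13 they were Timd4, a receptor of resident macrophages (r = 0.66), Zfp455 (0.59) and Fpr1 (0.58). For Ccl9 they were Tspan3 (r = 0.87), Cldn12 (0.86) and Mrps30 (0.86). For Cxcl2, over 35 mice, they were Mfsd7b (r = 0.69), Fkbp7 (0.67) and Tubb2a-ps2 (0.57). These values are the highest of many and share library and scaling, so they are given as a description.

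Calls were also made among chemokine receptors, but not among the other chemokines. Of 24 chemokine receptors 14 were tested in KO obese vs KO lean and 3 called, where 10.4% of all genes were. Cxcr3, the receptor of Cxcl9 and Cxcl10, was lower (-0.71 ± 0.25, adjusted p = 0.0632), as was Cxcr6, a receptor of T cells and NKT cells (-0.79 ± 0.23, adjusted p = 0.0320). Ccr1, the receptor of Ccl6 and Ccl9, was higher (0.96 ± 0.34, adjusted p = 0.0675) where both ligands were lower. In KO lean vs WT lean 3 of 12 receptors were called, all higher, namely Cxcr3 (0.97 ± 0.26, adjusted p = 0.0458), Cxcr6 (0.67 ± 0.22, adjusted p = 0.0728) and Ccr2 (0.78 ± 0.26, adjusted p = 0.0697), where 3.94% of all genes were called higher. With the random block 1 receptor was called with diet in KO mice and 0 between lean genotypes, and with equal read totals 2 and 1 were. No receptor was called in the other 4 comparisons. Of 29 other chemokines 7 to 13 were tested per comparison and 0 called by limma, with at most 2 at an unadjusted p under 0.05.

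Response genes of NF-kB and interferon, signals known to induce several of these chemokines, were examined in the same way. Of 20 NF-kB response genes 19 were tested in KO obese vs KO lean and 1 was called, where 10.4% of all genes were. It was Lcn2, an iron-binding acute phase protein (2.69 ± 0.45, adjusted p = 0.0035). In KO lean vs WT lean 1 of 18 was called higher, the adhesion molecule Vcam1 (0.75 ± 0.28, adjusted p = 0.0956), where 3.94% of all genes were. Of 26 interferon response genes 1 was called higher with diet in KO mice, Ifit3 (0.78 ± 0.22, adjusted p = 0.0305), and 2 lower, Ifi27l2a (-1.10 ± 0.28, adjusted p = 0.0181) and Irf7 (-0.66 ± 0.20, adjusted p = 0.0370). Of all genes 4.97% were called higher and 5.42% lower there. With genotype in lean mice 5 of the 26 were called higher, beside 3.94% of all genes, led by Ifi27l2a (1.38 ± 0.25, adjusted p = 0.0302) and Ifit1 (0.82 ± 0.22, adjusted p = 0.0461). With the random block 0 of the NF-kB and 0 of the interferon genes were called between lean genotypes, and with diet in KO mice 1 of each was. Cxcl9 and Cxcl10 were called in neither comparison.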

How the data were processed

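The sample labels name polyA RNA, while the study's methods describe stranded total RNA libraries. These libraries of whole liver were sequenced as read pairs. The authors aligned them to mm10 with Bowtie2, assigned read pairs with both ends mapped to genes with featureCounts, and divided counts by DESeq2 size factors, once for each of 6 comparisons. Their tool versions, annotation and strandedness option were not given in the sources used here. The deposited signal values are therefore normalized counts, comparable within a table only. The tables also hold the authors' baseMean, log2 fold changes, p-values and adjusted p-values, which were not used.

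Whole reads were recovered from these values (100.0% whole within 0.1 reads). No 2 libraries of a group agreed within sampling noise (smallest chi-square per gene 22.6 over 126 pairs). The labels do not say more of the animals than the identifiers. The main fit took the mice as independent, although several in each group share an identifier number. Its p-values measure the spread between these mice under that assumption. limma (3.58.1, R 4.3.3; lmFit, eBayes with trend, two-sided) was fitted to log2(normalized count + 1) of all genes with a mean of at least 5, with BH adjustment over all genes tested. A call needed an adjusted p under 0.1 together with a change of more than 1.5-fold, and the log2 threshold that the study's text gives was run as an alternative. Interactions took each fold change within its own table, with no fold threshold. Alternatives were pseudocounts of 0.5 and 4, no count filter, an adjusted p under 0.05, no fold threshold, TMM scaling, equal read totals, a gene length and GC correction (loess span 0.3), library quality weights, the identifier number as a random block, edgeR (4.0.16) and DESeq2 (1.42.0) on recovered reads, and leaving out each mouse. The fits were tested on simulated data. Covariation used 100000 permutations within groups. Coordinates came from GENCODE M21 on GRCm38 (92.7% of names matched).

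The chemokines and the lists of receptors, other chemokines, cell type markers and response genes were chosen with earlier results of these data known. Named genes were all 10 chemokines, every other chemokine or receptor called, and the 3 genes most like each called chemokine among those with a mean of at least 20. Of the other lists they were the 2 called genes with the smallest adjusted p per direction, while S100a8 and S100a9 were named without a call.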

Additional observations from a re-analysis of the deposited data

Results flagged for a closer look

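On the log2(normalized count + 1) scale 59 groups of 7 mice were examined. Of these 6 held a mouse whose distance to its nearest neighbour exceeded 0.568 of the range of the group (Dixon's criterion). Chance flags about 1 in 20, and the flagged mice are given with their normalized counts. In KO lean mice these were 20R for Cxcl2, at 0 normalized counts against 1.79 to 4.83 in the others, 20L for Cxcl12, at 8879 against 11317 to 13082, and 9L for Ccl2, at 8.80 against 17.4 to 27.3. In WT obese mice it was 6R for Cxcl9, at 184 against 274 to 327. In WT obese+RvE1 mice they were 30R for Cxcl10, at 51.7 against 78.9 to 89.7, and 7L for Cxcl13, at 564 against 25.4 to 61.1. Of the 6 mice 5 were the lowest of their group, and only 7L was the highest. The Cxcl12 value of 20L was the 1 KO lean value within the KO obese range, and 20R, without a Cxcl2 read, was among the 3 KO lean mice with the highest Cxcl1.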

How the results depend on the processing

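The alternatives changed 1 choice at a time. Of 770 values of single chemokines under alternatives other than leaving out a mouse, 712 kept direction and side of the threshold, 11 gained a call, 6 lost one and 41 changed sign, all 41 uncalled both ways, and the cause of these changes was not tested. Calls of Cxcl2, Cxcl13 and Ccl9 in KO obese vs KO lean held in every setting with the fold threshold of 1.5. The number of chemokines called moved from 0 to 1 by DESeq2 in WT obese vs WT lean (Ccl2), and from 4 to 2 in KO obese vs KO lean (Cxcl2 and Cxcl13) with an absolute log2 fold change above 1.5, to 3 with the random block, to 5 by edgeR or without a fold threshold, and to 6 by DESeq2, with library quality weights or with the length and GC correction. In KO lean vs WT lean it moved from 2 to 1 (Cxcl13) at an adjusted p under 0.05, with an absolute log2 fold change above 1.5, with equal read totals and with the length and GC correction, and to 0 with the random block on the identifier number. For the diet interaction it moved from 0 to 2 with library quality weights. Leaving out 1 mouse at a time gave 3 to 5 called chemokines in KO obese vs KO lean, 1 to 2 in KO lean vs WT lean, 0 to 1 for the diet interaction and 0 in the other comparisons and the RvE1 interaction. No paired analysis was possible because the groups compared share at most 1 identifier number, 23 in KO obese and KO obese+RvE1 mice. Counts over all genes moved by more than 1.5 times as follows. In WT obese vs WT lean 532 became 348 at 0.05 as the limit of the adjusted p, 878 without a fold threshold, 105 with the log2 threshold and 242 with the random block. In KO obese vs KO lean 1476 became 3422, 135 and 750 with the last 3 of these, and in KO lean vs WT lean 866 became 480, 2123, 11 and 3 with all 4, and 1536 with library quality weights. In KO obese vs WT obese 2 became 1 with equal read totals and 0 with the random block. With RvE1 0 became 1 by edgeR and 15 by DESeq2 in WT mice, and 14 by DESeq2 and 1 with library quality weights in KO mice. For the diet interaction 1 became 39 by edgeR, 930 by DESeq2, 2537 with library quality weights, and 0 at an adjusted p under 0.05, with a pseudocount of 4, equal read totals, the length and GC correction or the random block. Without 1 mouse, KO lean vs WT lean gave 388 (26R), 390 (21L), 400 (9L), 435 (20L) or 1480 (20R), the diet interaction gave 0 to 21, or 953 (22L) or 1840 (20R), KO obese vs WT obese gave 1 or 2, and RvE1 gave at most 3 (WT mice, 6R) and 1 (KO mice, 10RL or 23-2L). Cxcl2, Ccl5 and Ccl2, with a median under 20 reads per mouse, are the genes where depth limits a difference most.

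Among the log2 fold changes that changed sign, diet stands for obese vs lean, genotype for KO vs WT and RvE1 for treated vs untreated obese mice. The sign turned by DESeq2 for Cxcl13 0.68, Ccl5 -0.18 and Ccl9 0.0051 (WT diet), Cxcl13 -0.65 (obese genotype), Cxcl10 -0.16, Ccl9 0.12 and Ccl6 0.018 (RvE1 in KO), Ccl2 0.12 (diet interaction). By edgeR it turned for Cxcl13 0.68 and Ccl5 -0.18 (WT diet), Cxcl13 -0.67 (obese genotype), Cxcl10 -0.16, Ccl9 0.13 and Ccl6 0.026 (RvE1 in KO), Ccl2 0.16 (diet interaction). The sign turned with equal read totals for Cxcl10 -0.063 (lean genotype), Ccl9 0.039 and Ccl6 0.032 (RvE1 in KO). With the length and GC correction it turned for Ccl5 -0.053 (WT diet), Ccl5 -0.0062, Cxcl12 0.13 and Cxcl10 -0.034 (lean genotype), Ccl9 0.042 and Ccl6 0.0021 (RvE1 in KO). The sign turned with the random block for Ccl5 -0.026 (WT diet), Cxcl12 0.0013 (lean genotype), Cxcl10 0.043 and Ccl2 0.020 (RvE1 interaction). With library quality weights it turned for Cxcl13 0.36 (WT diet), Cxcl9 0.013 (KO diet), Cxcl9 -0.16, Cxcl12 0.048 and Cxcl10 -0.27 (lean genotype), Cxcl13 -0.20 (obese genotype), Cxcl9 -0.047, Cxcl10 -0.15, Ccl9 0.32 and Ccl6 0.038 (RvE1 in KO), Cxcl1 0.14 and Cxcl13 0.21 (RvE1 interaction). The sign turned with a pseudocount of 4 for Ccl5 -0.016 (WT diet).

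Leaving out 1 mouse at a time turned the sign of log2 fold changes near 0, with the ranges Cxcl13 -0.63 to 0.24, Ccl5 -0.15 to 0.23 and Ccl9 -0.42 to 0.021 (WT diet), Ccl2 -0.10 to 0.64 (KO diet), Ccl5 -0.063 to 0.39, Cxcl1 -0.80 to 0.21, Cxcl12 -0.082 to 0.055 and Cxcl10 -0.11 to 0.21 (lean genotype), Ccl2 -0.37 to 0.38 and Cxcl13 -0.24 to 0.64 (obese genotype), Ccl9 -0.41 to 0.024, Cxcl12 -0.019 to 0.20 and Ccl2 -0.027 to 0.29 (RvE1 in WT), Ccl2 -0.36 to 0.39, Cxcl9 -0.12 to 0.31, Cxcl10 -0.12 to 0.46, Ccl9 -0.18 to 0.16 and Ccl6 -0.20 to 0.092 (RvE1 in KO), Cxcl13 -0.98 to 0.11, Ccl9 -0.059 to 0.38, Cxcl10 -0.46 to 0.12 and Ccl2 -0.49 to 0.26 (RvE1 interaction).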

Other observations

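Calls were also made in gene groups beside the chemokines. Of 16 immediate early genes, which respond quickly to handling and stress, 15 were tested in KO lean vs WT lean and 4 called lower, led by the nuclear receptor Nr4a1 (-2.76 ± 0.72, adjusted p = 0.0430) and the transcription factor subunit Fosl2 (-1.36 ± 0.42, adjusted p = 0.0598), with a median of -1.20. In WT obese vs WT lean 2 of 16 were called lower, the transcription factors Atf3 (-1.67 ± 0.47, adjusted p = 0.0615) and Nr4a3 (-2.86 ± 0.88, adjusted p = 0.0877). In KO obese vs KO lean 2 of 15 were called higher, Fosl2 (0.84 ± 0.30, adjusted p = 0.0701) and Egr2 (1.66 ± 0.60, adjusted p = 0.0701). The median of the list was -0.91 in WT obese vs WT lean and 0.20 in KO obese vs KO lean. Of all genes 352 of 13031 were called lower in KO lean vs WT lean and 215 of 14012 in WT obese vs WT lean. In KO obese vs KO lean 706 of 14213 were called higher. When mice were blocked by identifier number, none of these 3 comparisons called an immediate early gene.

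Markers of other cell types were called as follows. In KO obese vs KO lean 2 of 6 tested T and NK cell markers were called lower, Klrb1c, an NK cell receptor (-0.999 ± 0.38, adjusted p = 0.0828), and Cd3g, a chain of the T cell receptor complex (-1.42 ± 0.55, adjusted p = 0.0864). In the same comparison 1 of 5 monocyte markers was called lower, Lyz2 (-0.73 ± 0.20, adjusted p = 0.0256), as was 1 of 6 sinusoidal endothelial markers, the lectin Clec4g (-0.73 ± 0.23, adjusted p = 0.0425). The mesothelial marker Upk3b (-1.86 ± 0.48, adjusted p = 0.0207) was called lower as well, 1 of 3 tested. Of 6 tested stellate cell and fibroblast markers only Des was called lower (-0.59 ± 0.21, adjusted p = 0.0704). In that list 4 markers had positive values and the median was 0.05. Of all genes 5.42% were called lower in this comparison. With equal read totals only Upk3b of the 6 markers named here was called, and with the random block only Upk3b and Lyz2 were. By limma 0 hepatocyte and 0 dendritic cell markers were called in any comparison, with 0 at an unadjusted p under 0.05.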
